A study of Mus musculus with 4 samples.

Results

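Iron, heme and metallothionein genes of the liver were followed in mice with and without the mitochondrial fission protein Drp1. The 10 genes are Alas1, Tfrc, Slc40a1, Trf, Fth1, Ftl1, Mt1, Mt2, Slc39a14 and Cp. They were chosen by name: a gene probe was taken when its symbol in the scanner files was one of these 10. This gave 17 of the 39392 probes used, and 10 of the 30439 genes or transcripts they represent. All 10 genes were well above background on all 4 arrays, which means that the scanner software placed the spot clearly over its local background. None was therefore lost to a filter on dim signals. Of the 17 probes, 15 passed on all 4 arrays.

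Total liver RNA was hybridized to 4 one-color Agilent arrays, all on 1 slide and in 1 scan, with 1 liver array per group. The knockout mice (Drp1LiKO) carry Alb-Cre Tg/+ and Drp1 flox/flox, and their controls (Cont) are Drp1 flox/flox littermates that the labels call wild type. The paper calls the knockout liver-specific, and which cell types of these livers lost Drp1 cannot be read from the arrays. The deleted exons are not named in the sources used here. All mice were male C57BL/6J and had been on a high-fat diet (HFD) for 24 weeks per the labels. Per the methods, that diet began at 4 weeks of age.

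The refed Cont and refed Drp1LiKO livers were taken 4 h after food was returned, following a fast of 17 h per the labels. The methods give a slightly shorter fast and a range of diet times. For the other Cont and Drp1LiKO livers the labels name no feeding state. They are read as fasted from the description of the experiment, and their raw data also belong to earlier submissions. Per the methods, experiments after an overnight fast were done in the morning, and refed samples were collected in the afternoon. Feeding state and time of day may thus differ together between these livers, and the part of time of day in the refeeding differences was not tested. The array design and the RNA kit in the labels are not those of the methods. With no second array in any group, the spread between animals is unknown, and a difference given here is between livers, not between populations of mice.

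Iron enters cells bound to transferrin through the transferrin receptor, or as free iron through transporters such as the one made from Slc39a14, and leaves them through ferroportin. Hepatocytes store iron in ferritin, secrete transferrin and ceruloplasmin, and use iron and glycine for heme, much of which goes into cytochrome P450 enzymes. Ferritin and transferrin receptor mRNAs are also controlled after transcription by iron regulatory proteins, so mRNA on an array is not a measure of the protein. Metallothioneins are small cysteine-rich proteins that bind zinc and copper, and the zinc-sensing factor made from Mtf1 acts on their promoters through metal response elements.

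Dnm1l, the gene of Drp1, has 1 probe at chr16:16312331-16312390 of the mm9 build. Its level was 1.02 in the fasted Cont, 0.81 in the fasted Drp1LiKO, 0.66 in the refed Cont and 0.54 in the refed Drp1LiKO liver. The genotype difference was -0.21 after fasting and -0.12 after refeeding, each with an SE of 0.20. The probe can lie outside the deleted part, so it checks nothing about the labels.

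Levels are log2 signals relative to the 75th percentile of the array, which was 461 for fasted Cont, 722 for fasted Drp1LiKO, 357 for refed Cont and 526 for refed Drp1LiKO. The share of gene spots well above background was 51.4%, 58.2%, 48.7% and 55.4% in the same order, and 0 spots were saturated. A difference is the log2 level in Drp1LiKO minus Cont, or refed minus fasted. Its SE is the measurement SE of the scanner's error model, 0.20 for the genes below and 0.21 for Tfrc, and it leaves out the spread between animals. A gene counts as higher or lower at 2-fold or more when the brighter signal is well above background. The 4 comparisons share arrays: each liver serves in 1 genotype and 1 refeeding comparison. In bulk liver RNA, fewer cells of a type and less RNA per cell cannot be told apart.

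At 2-fold, 2 of the 10 genes passed in any of the 4 comparisons, each in 1 of them: Mt1 between genotypes after refeeding, and Tfrc between the fasted and the refed Drp1LiKO liver. After fasting, 0 of 10 members were higher and 0 of 10 lower in Drp1LiKO, beside 8.06% and 5.19% of 18040 genes. After refeeding, Mt1 was higher, 1 of 10 members, beside 8.05% of 17446 genes, and 0 of 10 were lower, beside 6.33%. With refeeding in Cont, 0 of 10 were higher and 0 of 10 lower, beside 4.47% and 5.83% of 16437 genes. With refeeding in Drp1LiKO, Tfrc was higher, 1 of 10, beside 5.61% of 18329 genes, and 0 of 10 were lower, beside 7.15%. These counts are too small to set the 10 genes apart from that background.

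Below 2-fold the members leaned one way in some of the comparisons. After fasting the genotype difference was negative in 8 of 10, in 5 of them by more than 2 SE. Of the 14447 genes that were, like the members, well above background on all 4 arrays, 61.3% were negative and 22.3% negative by more than 2 SE. The median difference of the members was -0.44 beside -0.12 for those genes. With refeeding in Drp1LiKO 7 of 10 were positive, 6 of them by more than 2 SE, beside 59.1% and 25.6% of those genes, with a median of 0.51 beside 0.12. The other 2 medians were -0.06 beside -0.08 for the genotypes after refeeding, and -0.09 beside 0.11 for refeeding in Cont. Much of this lean moved with the scaling. Over the 75th percentile, 4 other settings of scaling or background and the median over probes, only 4 of 10 genes kept one sign after fasting, Alas1, Tfrc and Slc39a14 negative and Mt2 positive. The number was 5 of 10 for the genotypes after refeeding, and 8 of 10 for refeeding in each genotype.

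**Figure D1:**
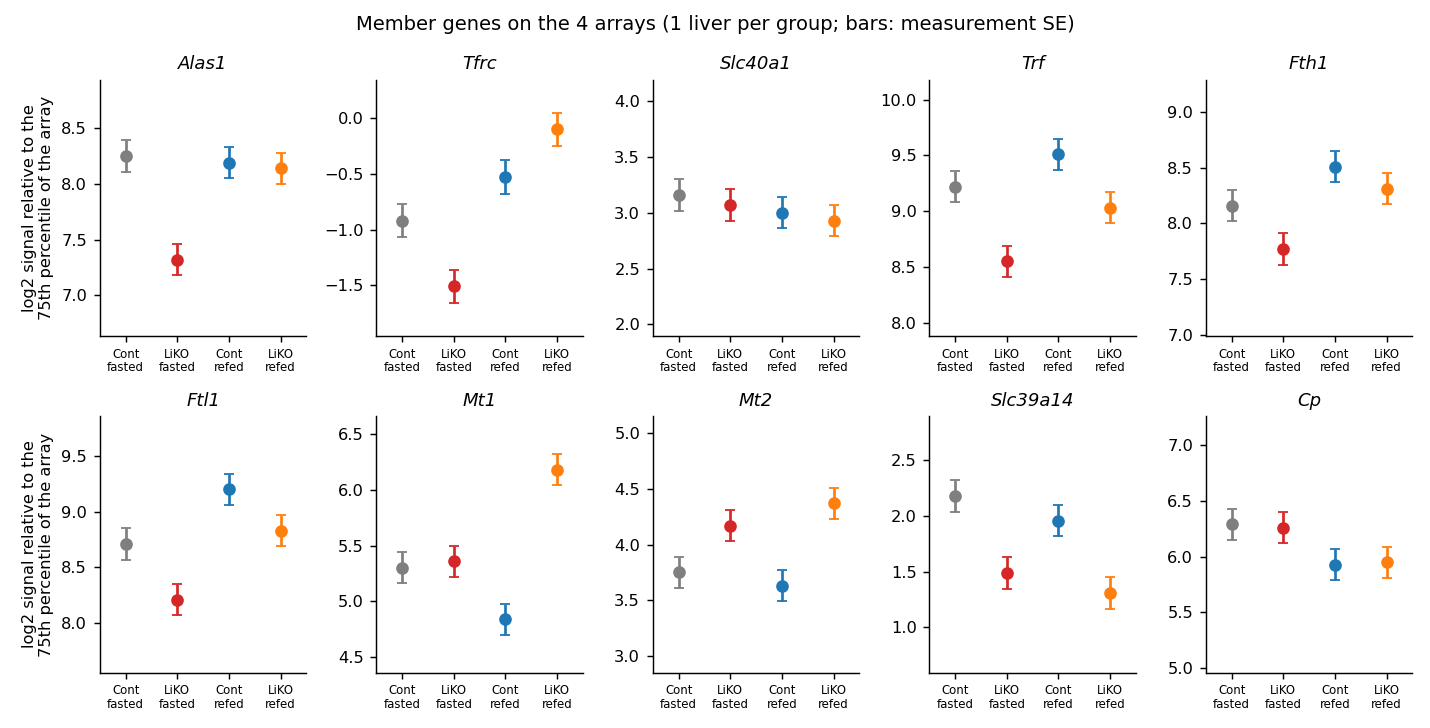
Level of each of the 10 genes on the 4 arrays, as log2 signal relative to the 75th percentile of the array, with the measurement SE as bars; each panel spans the same number of log2 units. Alas1 is lowest in the fasted Drp1LiKO liver (7.32), Tfrc and Mt1 are highest in the refed Drp1LiKO liver (-0.10 and 6.18), and Slc40a1 spans 0.23 in all.

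Alas1 encodes the first and rate-limiting enzyme of heme synthesis in liver. Its level was 8.25 in the fasted Cont, 7.32 in the fasted Drp1LiKO, 8.19 in the refed Cont and 8.14 in the refed Drp1LiKO liver, from signals of 140248, 115099, 104061 and 148696. On this scale the fasted Drp1LiKO liver was the lowest, by 0.83 below the next liver, while the other 3 lay within less than 1 SE of each other. Under quantile normalization the brighter of the 2 Alas1 probes still put it lowest, but only 0.17 below the refed Cont liver, less than 1 SE. The other 3 spanned 0.31, so that by this probe it no longer stood apart. Genotypes differed by -0.93 (SE 0.20, 1.91-fold) in the fasted livers and by -0.04 in the refed ones. With refeeding it was -0.06 in Cont and 0.83 (1.77-fold) in Drp1LiKO, short of 2-fold in each case.

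The size of the Alas1 differences moved with the scaling. Across settings the fasted genotype difference ranged from -0.99 to -0.45 and the refeeding difference in Drp1LiKO from 0.48 to 0.92, without a change of sign. The refed genotype difference ran from -0.04 to 0.31 and had the opposite sign under median scaling, normexp, quantile normalization and the authors' matrix. A second Alas1 probe, at chr9:106135796-106135855 against chr9:106136284-106136343 for the first (mm9, minus strand), gave -0.78, -0.04, 0.07 and 0.81 for the 4 differences in the order used here. The 2 probes target different bases, so the low value of the fasted Drp1LiKO liver on the percentile scale does not rest on 1 spot. Under quantile normalization the second probe gave -0.63, 0.06, -0.05 and 0.64 (SE 0.20 each). By this probe the fasted Drp1LiKO liver thus stayed apart as the lowest on that scale, where by the first it did not.

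Tfrc encodes the transferrin receptor, the main route of iron into dividing and erythroid cells and a minor one in hepatocytes. Its level was -0.92 in the fasted Cont, -1.51 in the fasted Drp1LiKO, -0.53 in the refed Cont and -0.10 in the refed Drp1LiKO liver, so all 4 values lie under the 75th percentile of their array. Drp1LiKO held both the lowest and the highest value. The probe behind these levels (chr16:32632255-32632314, mm9) is printed 10 times on each array, and 9 of its spots were used in the refed Drp1LiKO liver. The SD of the log2 signal over these spots was 0.092, 0.099, 0.077 and 0.074, in the order of the levels.

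The genotype difference of Tfrc was -0.60 after fasting and 0.42 after refeeding, with opposite signs. Refeeding gave 0.39 in Cont, and 1.41 (SE 0.21, 2.66-fold) in Drp1LiKO, the second value at 2-fold under each setting tried, with a range of 1.18 to 1.87. Of the neighbours in the order of the levels, only fasted Cont and refed Cont were within 2 SE.

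A second Tfrc probe gave a larger fall on the fasted arrays. It targets bases from 1228 of the transcript (chr16:32620470-32620529, mm9), far from the first probe, which starts at base 4288, and it is shown because the 2 probes differ most here:
Tfrc probe from base 1228: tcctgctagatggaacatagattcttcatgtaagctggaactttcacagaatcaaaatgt
Its signals were 306 in the fasted Cont, 77.9 in the fasted Drp1LiKO, 113 in the refed Cont and 207 in the refed Drp1LiKO liver. The fasted Cont liver was the highest by this probe, where the first probe put the refed Drp1LiKO liver highest. The genotype difference was -2.62 (SE 0.23) after fasting and 0.31 after refeeding, and refeeding gave -1.07 in Cont and 1.87 in Drp1LiKO. Both probes have the same signs in 3 of the 4 comparisons and opposite signs for refeeding in Cont. The remaining probe was well above background on 0 of 4 arrays.

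Trf encodes transferrin, the iron carrier of plasma, which hepatocytes secrete. Its level was 9.22 in the fasted Cont, 8.55 in the fasted Drp1LiKO, 9.51 in the refed Cont and 9.03 in the refed Drp1LiKO liver. Both Drp1LiKO livers were lower than both Cont livers on this scale, with differences of -0.68 after fasting and -0.48 after refeeding, which under quantile normalization were 0.00 and 0.03. Before scaling, the 4 signals were 275371, 269804, 260316 and 274716, nearly flat. A second probe for Trf gave -0.60 and -0.37 for the genotypes and 0.20 and 0.42 for refeeding.

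Slc40a1 encodes ferroportin, the only known exporter of iron from cells, which in liver is prominent in Kupffer cells. Levels were 3.16 in the fasted Cont, 3.07 in the fasted Drp1LiKO, 3.0 in the refed Cont and 2.93 in the refed Drp1LiKO liver (chr1:45965255-45965314, mm9). The 4 livers could not be told apart, with a range of 0.23 and no gap between neighbours over 2 SE. Genotype differences were -0.10 and -0.07, with both signs among the settings, and refeeding differences were -0.16 in Cont and -0.13 in Drp1LiKO.

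Slc39a14 encodes ZIP14, which takes up zinc, manganese and iron that is not bound to transferrin. The level was 2.18 in the fasted Cont, 1.49 in the fasted Drp1LiKO, 1.96 in the refed Cont and 1.31 in the refed Drp1LiKO liver (chr14:70703394-70703453, mm9). Both Drp1LiKO livers were lower than both Cont livers, and the gap between the lower Cont and the higher Drp1LiKO liver was 0.46. The genotype difference was -0.69 after fasting and -0.65 after refeeding. Across settings it stayed between -0.74 and -0.58 in the first case and between -0.65 and -0.52 in the second. Its sign was thus the same in both feeding states under each setting, at less than 2-fold. Refeeding differences were small, -0.22 in Cont and -0.19 in Drp1LiKO.

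Fth1 and Ftl1 encode the heavy and light chains of ferritin, which stores iron. Fth1 stood at 8.16 in the fasted Cont, 7.77 in the fasted Drp1LiKO, 8.51 in the refed Cont and 8.31 in the refed Drp1LiKO liver. Ftl1 stood at 8.71, 8.21, 9.20 and 8.83 in the same order. By these probes and on this scale both chains had the same order of livers, with refed Cont at the top and fasted Drp1LiKO at the bottom. For Fth1 no gap between neighbours passed 2 SE. Under quantile normalization the fasted Cont liver was lowest for both, by 0.09 for Fth1 and 0.00 for Ftl1. A second Ftl1 probe had levels of 7.12, 7.19, 7.70 and 7.74, with refed Drp1LiKO at the top and fasted Cont at the bottom.

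The genotype differences of Fth1 were -0.38 after fasting and -0.20 after refeeding, and 0.09 and 0.15 under quantile normalization, where the sign turns. Ftl1 gave -0.50 and -0.37, and 0.00 and 0.08 under quantile normalization. Refeeding differences were positive under each setting for both: 0.35 in Cont and 0.53 in Drp1LiKO for Fth1, and 0.49 and 0.62 for Ftl1, with lowest values over the settings of 0.13, 0.19, 0.24 and 0.32 in that order. The second Ftl1 probe spans 482 bases of the genome (chr7:52714014-52714495, mm9) and gave 0.07 and 0.04 for the genotypes, with 0.58 and 0.55 for refeeding. The first is placed by the files on another chromosome, at chr17:6131686-6131745. Ferritin light chain genes have near-identical copies, so which copy its signal reads is uncertain.

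Alas1, Trf, Fth1 and Ftl1 are among the 448 genes with a mean signal of at least 50000 over the 4 arrays, a class formed after the values had been seen. The median difference of that class was -0.37 between genotypes after fasting, -0.21 after refeeding, 0.36 for refeeding in Cont and 0.48 for refeeding in Drp1LiKO. Quantile normalization brought the 4 medians to 0.01, 0.02, 0.06 and 0.02. The middle part of the class ran from a lower quartile of -0.56 to an upper one of -0.23 after fasting, and from -0.46 to -0.04 after refeeding. Fth1 and Ftl1 lay inside both ranges, while Trf lay below both and Alas1 below the first. The part of spot brightness in these values was not tested.

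**Figure D2:**
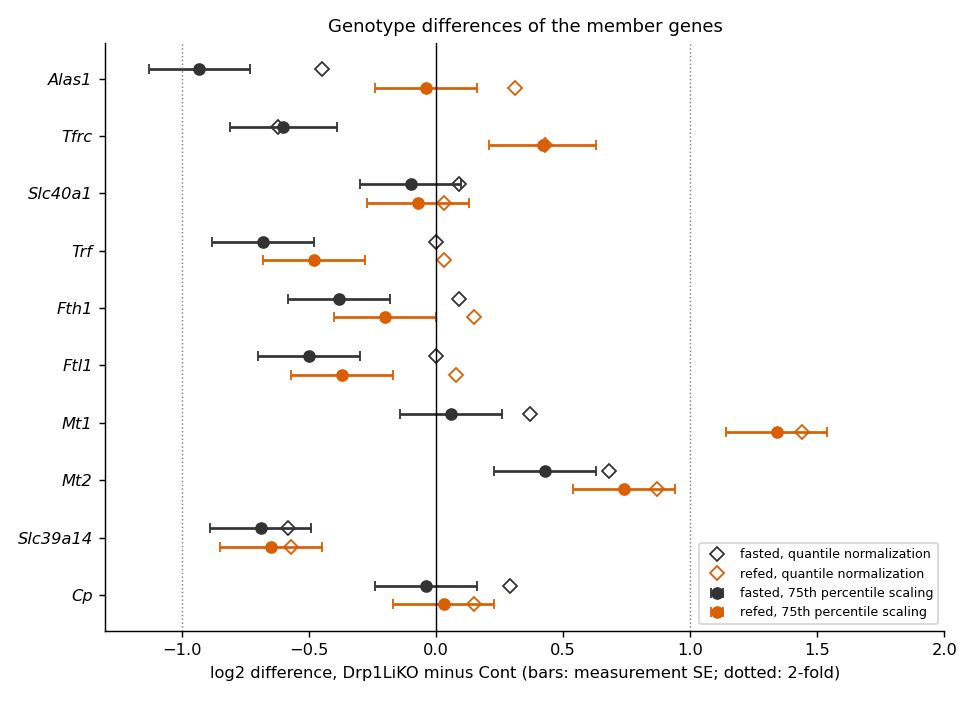
Log2 difference of Drp1LiKO minus Cont for each gene, after fasting and after refeeding, with filled points and measurement SE bars for the 75th percentile scale and open diamonds for quantile normalization; dotted lines mark 2-fold. Mt1 after refeeding passes 2-fold on both scales (1.34 and 1.44), Slc39a14 lies at -0.69 and -0.65 and changes little, and Trf moves from -0.68 and -0.48 to 0.00 and 0.03.

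Mt1 and Mt2 encode the main hepatic metallothioneins. They are neighbours on mouse chromosome 8: 6735 bases separate the end of the Mt2 probe (chr8:96697371-96697430, mm9) from the start of the brighter Mt1 probe (chr8:96704165-96704224). Their promoters are shown because both genes had a positive genotype difference after refeeding, 1.34 and 0.74. Each sequence is the 250 bases before the RefSeq start on the plus strand of GRCm38.p6, at chr8:94178839-94179088 for Mt1 and chr8:94172368-94172617 for Mt2. Capitals mark matches, on either strand, to TGCACNC or TGCGCNC, the core letters of a metal response element.
Mt1: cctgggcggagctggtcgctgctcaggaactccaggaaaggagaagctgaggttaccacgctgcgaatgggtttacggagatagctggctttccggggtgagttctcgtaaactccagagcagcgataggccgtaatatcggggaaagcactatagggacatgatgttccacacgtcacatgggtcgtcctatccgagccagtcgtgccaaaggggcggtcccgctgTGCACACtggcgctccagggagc
Mt2: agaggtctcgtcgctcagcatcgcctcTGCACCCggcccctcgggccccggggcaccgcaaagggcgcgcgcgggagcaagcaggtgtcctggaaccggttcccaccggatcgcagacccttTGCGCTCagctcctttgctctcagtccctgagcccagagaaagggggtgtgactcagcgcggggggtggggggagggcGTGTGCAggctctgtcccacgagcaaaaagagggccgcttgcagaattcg
In the 300 bases from 250 before to 50 after the start, Mt1 held 3 such matches and Mt2 held 4, part of them after the start and so not printed. Of 32851 promoters of that length, 25.7% held at least 1 match (12.6% for TGCACNC and 15.4% for TGCGCNC), and 1.97% held 3 or more. In the same 300 bases TGACNNNGC, the core of an antioxidant response element, was found once in Mt2 and not in Mt1, and in 12.4% of all promoters. Bases outside this window were not searched, so a motif not found here may lie beyond it. In Mt1, matches to the metal response core begin at bases 2 and 20 after the RefSeq start. The counts thus depend on where that start is placed. Promoters of 7 of the 10 members are in the table. The first Alas1 window also held 3 matches to the metal response core, the first Tfrc window held 2, and the windows of Fth1, Ftl1 and Cp held 0. A match is a description of these letters, not a binding site.

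The Mt1 level was 5.30 in the fasted Cont, 5.36 in the fasted Drp1LiKO, 4.84 in the refed Cont and 6.18 in the refed Drp1LiKO liver. Refed Drp1LiKO was highest and refed Cont lowest, with both fasted livers between them and within 1 SE of each other. The genotype difference was 0.06 after fasting and 1.34 (SE 0.20, 2.54-fold) after refeeding. Refeeding gave -0.47 in Cont and 0.82 in Drp1LiKO, with opposite signs, and -0.70 and 0.37 under quantile normalization.

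A second, dim Mt1 probe did not repeat the refed genotype difference. It lies at chr8:96703844-96703903, upstream of the first, with signals of 41.9 in the fasted Cont, 121 in the fasted Drp1LiKO, 32.8 in the refed Cont and 42.8 in the refed Drp1LiKO liver, and it was well above background on all 4 arrays. By this probe the fasted Drp1LiKO liver was the highest. It gave a genotype difference of 0.88 (SE 0.30) in the fasted and of -0.17 (SE 0.38) in the refed livers, and its refeeding difference was 0.01 in Cont and -1.04 (SE 0.27) in Drp1LiKO. Taking the median over both probes put the refed genotype difference at 0.59, under 2-fold, and the refeeding difference in Drp1LiKO at -0.11.

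Mt2 stood at 3.75 in the fasted Cont, 4.17 in the fasted Drp1LiKO, 3.63 in the refed Cont and 4.37 in the refed Drp1LiKO liver. Both Drp1LiKO livers were higher than both Cont livers, with a gap of 0.43 between the groups. The genotype difference was 0.43 after fasting (0.37 to 0.68 across settings) and 0.74 after refeeding (0.74 to 0.87), without reaching 2-fold. Refeeding differences were -0.12 in Cont and 0.19 in Drp1LiKO, the latter -0.11 under quantile normalization. Mt1 and Mt2 thus both had positive genotype differences after refeeding under each scaling, while after fasting the Mt1 difference was 0.06 on the percentile scale and 0.37 under quantile normalization.

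Cp encodes ceruloplasmin, the copper-carrying ferroxidase of plasma. Its level was 6.29 in the fasted Cont, 6.26 in the fasted Drp1LiKO, 5.93 in the refed Cont and 5.95 in the refed Drp1LiKO liver (chr3:19889071-19889130, mm9). The genotypes lay within 0.04 of each other in either feeding state on this scale, and differed by 0.29 and 0.15 under quantile normalization. Both refed livers were lower than both fasted ones, with no gap between neighbours over 2 SE. Refeeding differences were -0.37 in Cont and -0.30 in Drp1LiKO, and -0.64 and -0.77 under quantile normalization. A second Cp probe was well above background on 1 array.

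**Figure D3:**
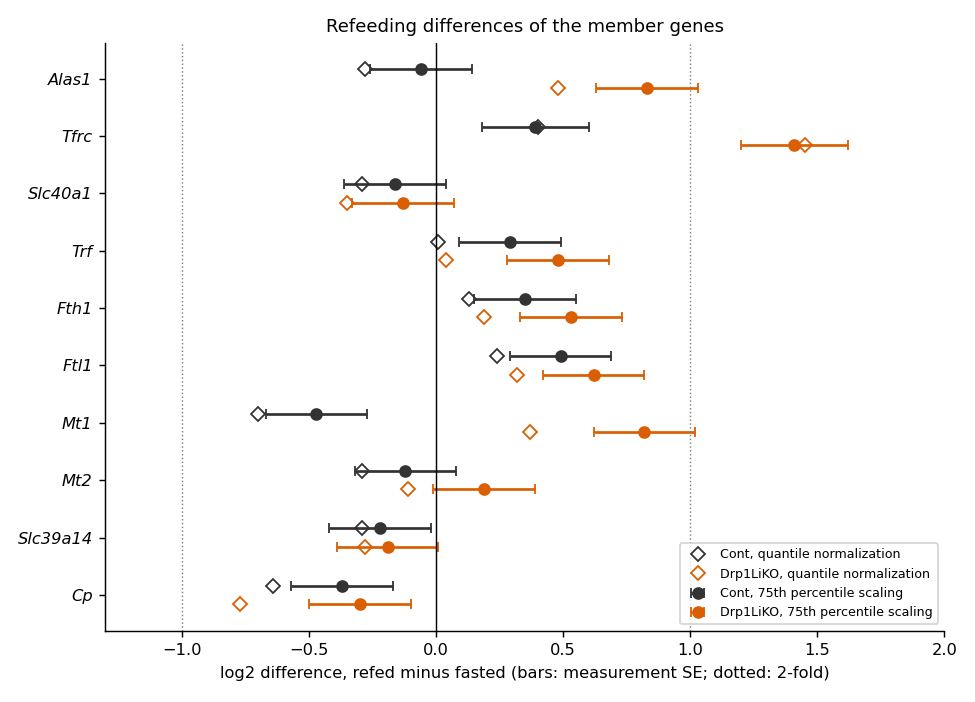
Log2 difference of refed minus fasted for each gene in Cont and in Drp1LiKO, with filled points and measurement SE bars for the 75th percentile scale and open diamonds for quantile normalization; dotted lines mark 2-fold. Tfrc in Drp1LiKO passes 2-fold on both scales (1.41 and 1.45), Cp is negative in both genotypes, and Mt1 has opposite signs in Cont (-0.47) and Drp1LiKO (0.82) on both scales.

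The 2 genotype differences of a gene were also set against each other. The refed minus the fasted one was 0.89 (SE 0.29) for Alas1, 1.02 (SE 0.30) for Tfrc and 1.29 (SE 0.29) for Mt1. It was 0.31 for Mt2 and between 0.03 and 0.20 for the remaining 6. At 2-fold this makes 2 of 10 members higher, Tfrc and Mt1, beside 1.87% of 14447 genes well above background on all 4 arrays, and 0 of 10 lower, beside 2.38%. Across 4 other scalings, added after seeing the data, the values were 0.76 to 1.0 for Alas1, 0.85 to 1.13 for Tfrc and 1.07 to 1.39 for Mt1. Tfrc was under 2-fold with normexp. The result for Mt1 rests on its bright probe: the dim one gave -1.05 (SE 0.49), the opposite sign, and the median over probes gave 0.12, under 2-fold, beside 2.61 for Tfrc and 0.82 for Alas1. Each value rests on 4 livers without a repeat and was not tested.

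**Figure D4:**
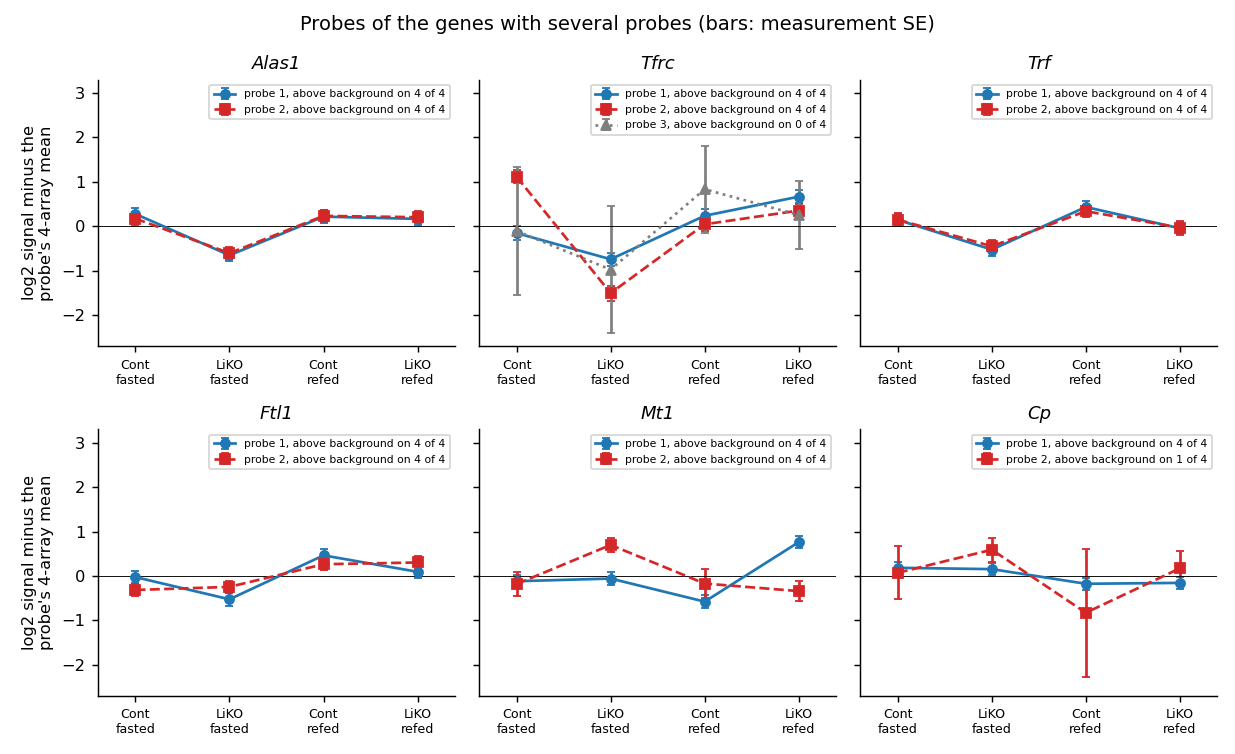
Log2 signal of each probe minus its own mean over the 4 arrays, for the 6 genes with several probes, with the measurement SE as bars and the number of arrays well above background in each legend. The probes of Alas1 and Trf run together, while those of Tfrc part in the fasted livers (genotype difference -0.60 against -2.62) and those of Mt1 in the Drp1LiKO livers (0.06 against 0.88 after fasting, 1.34 against -0.17 after refeeding).

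The only test across arrays was a limma fit with additive terms for genotype and for feeding, which has 1 residual degree of freedom and takes any interaction as error. Of 16744 genes, 0 passed an adjusted p of 0.05 for genotype (0%, and 0 of 10 members) and 0 for refeeding (0%, and 0 of 10 members). At an unadjusted p under 0.05 limma had 4746 genes for genotype, 4 of them members, and 4414 for refeeding, 2 of them members. Other limma settings called between 0 and 1214 genes for genotype and between 0 and 15 for refeeding, and 0 members in each.

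Slc39a14 had the lowest adjusted p of the members for genotype, with an estimate of -0.67 (SE 0.14), negative in 2 of 2 feeding states, and a limma adjusted p of 0.112, from 0.0538 to 0.334 over the settings. Mt2 was estimated at 0.58 (SE 0.16) and positive in 2 of 2, with a limma adjusted p of 0.14 (0.065 to 0.352). For Trf the estimate was -0.58 with a limma adjusted p of 0.131 (0.0702 to 0.949), and for Ftl1 -0.43 with 0.167 (0.11 to 0.847). Mt1 at 0.70 (SE 0.37, limma adjusted p 0.299, 0.168 to 0.455) and Alas1 at -0.49 (SE 0.28, limma adjusted p 0.321, 0.227 to 0.863) had larger SEs, and their 2 genotype differences lay further apart. For refeeding, Ftl1 at 0.55 had a limma adjusted p of 0.169 (0.0886 to 0.546), Fth1 at 0.44 had 0.185 (0.115 to 0.567), and Tfrc at 0.90 (SE 0.31) had 0.19 (0.102 to 0.485). A p over the threshold does not show that a gene stayed the same.

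For the lists below, 2-fold counts can be read beside the shares of all genes. Between genotypes these were 8.06% higher and 5.19% lower after fasting, and 8.05% and 6.33% after refeeding. With refeeding they were 4.47% and 5.83% in Cont, and 5.61% and 7.15% in Drp1LiKO. Of the 9 enzymes of heme synthesis, Alas1 included, most had negative genotype differences under 2-fold. After fasting the difference was negative in 8 of 9, Uros being at 0.17, with a median of -0.54. Of the genes that were, like these 9, well above background on all 4 arrays, 61.3% were negative, with a median of -0.12. After refeeding the difference was negative in 9 of 9 on the percentile scale, beside 57.8% of those genes, with a median of -0.35 beside -0.08. That of Alas1 turned positive under other scalings, as given above. Both medians of the enzymes kept their sign over the scalings, from -0.60 to -0.33 and from -0.35 to -0.30. At 2-fold 0 of 9 passed after fasting, and 1 of 9 was lower after refeeding, Alas2 at -1.29, the erythroid counterpart of Alas1, named after its value was seen. Refeeding medians were 0.19 in Cont and -0.05 in Drp1LiKO, and both had the other sign under at least 1 scaling. Alas1 was thus within the range of the other enzymes after fasting, and at -0.04 it was nearest to 0 of the 9 after refeeding.

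Of the genes for heme breakdown, binding and transport, 15 of 16 could be read, with medians of -0.36 and -0.33 between genotypes and of 0.18 and 0.35 with refeeding. Beside these, all genes had -0.08 and -0.04, then 0.09 and 0.08, and under quantile normalization the 4 list medians were -0.03, -0.07, 0.04 and 0.14. After refeeding 2 of 15 were higher in Drp1LiKO at 2-fold. These were Flvcr2, a membrane transporter, at 1.05, and Hmox1, the inducible heme oxygenase that breaks heme down, at 1.02, the second named after its value was seen. Flvcr2 was also the gene of the list that was lower with refeeding in both genotypes, at -1.49 in Cont and -1.33 in Drp1LiKO. With normexp the refed genotype difference of Flvcr2 was 0.62 and its refeeding difference in Cont -0.96, both under 2-fold, and Hmox1 was at 0.95 by the median over probes.

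Systemic iron regulation is the hepatic pathway around hepcidin, the hormone that removes ferroportin from cell surfaces. After fasting 5 of 21 readable genes were higher and 3 lower in Drp1LiKO, beside 8.06% and 5.19% of all genes. After refeeding 1 was higher and 2 lower, beside 8.05% and 6.33%. The list medians were 0.02, which turned negative under other scalings, and -0.16. With refeeding 3 were higher and 2 lower in Cont, beside 4.47% and 5.83%, and 1 was higher and 2 lower in Drp1LiKO, beside 5.61% and 7.15%. The 5 higher after fasting, named after their values were seen, were Hjv, a co-receptor for bone morphogenetic proteins, at 1.03, the ligand Bmp6 at 1.23, the signal transducer Smad1 at 1.09, Id1 at 1.71 and Atoh8 at 1.21. Under at least 1 other scaling Hjv, Bmp6 and Smad1 were short of 2-fold, with lowest values of 0.97, 0.64 and 0.37, and after refeeding Atoh8 was at -1.61. The 3 lower after fasting were Hamp2, Fgl1 and Smad6, an inhibitor of the same signalling, at -1.49 (-1.55 to -1.26 across scalings) and named after its value was seen. Hamp2, a second hepcidin gene of mice, was lower in Drp1LiKO in both feeding states, at -1.56 and -1.94. Hamp, the hepcidin gene proper, named after its value was seen, was at 0.91 after fasting and -0.16 after refeeding between genotypes, at 1.41 with refeeding in Cont and at 0.34 with refeeding in Drp1LiKO. Under quantile normalization its fasted genotype difference was 1.23, past 2-fold, and the other 3 values were -0.02, 1.08 and -0.16. Fgl1, likewise named after its value was seen, was at -1.89 after fasting and 1.29 after refeeding.

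Among genes of cellular iron handling, 22 of 23 are on the array, and 19 were readable after fasting and 20 after refeeding. In both feeding states 1 was higher and 1 lower in Drp1LiKO. Steap2, a metalloreductase, was lower in both, at -1.54 after fasting and at -2.28 after refeeding, where the dim Drp1LiKO side gives a bound of -1.83, but by the median over its probes it was at 0.30 and -0.93, under 2-fold. The list medians were -0.10 and -0.18 between genotypes (-0.02 and -0.12 under quantile normalization, -0.06 and -0.15 over the 16 well above background on all 4 arrays), and 0.15 and 0.11 with refeeding. The 27 genes of iron-sulfur cluster assembly had medians of -0.21 and -0.10 between genotypes and of 0.18 and 0.24 with refeeding, which quantile normalization brought to -0.03, -0.03, 0.08 and 0.08, and all 27 stayed under 2-fold with refeeding.

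For the other metallothionein and zinc genes the median genotype difference was 0.04 after fasting and -0.05 after refeeding, with both signs among the scalings in the first case, and -0.10 and 0.01 over the 16 well above background on all 4 arrays. At 2-fold 2 of 19 were higher after fasting, both with a dim Cont side, and 1 was lower, and 0 of 19 were higher and 2 lower after refeeding. Mtf1, the zinc-sensing activator of Mt1 and Mt2, named after its value was seen, was at -0.38 and -1.05 between genotypes and at 1.47 and 0.81 with refeeding. Its refed genotype difference was -0.95 with normexp and 0.04 by the median over probes, so the 2-fold call is lost under either. The other gene lower after refeeding was Slc30a2, a zinc transporter, likewise named after its value was seen. It was well above background only in the refed Cont liver, with a signal of 203 there against 6.69 in the fasted Cont, 12.6 in the fasted Drp1LiKO and 4.90 in the refed Drp1LiKO liver. Its refed genotype difference was -5.93, with a bound of -3.73 for the dim side, and its refeeding difference in Cont was 5.29, with a bound of 3.15. Mt3, the brain metallothionein, was at -0.18 and -0.41, and Mt4 did not pass the background flag on any of the 4 arrays. With refeeding 2 of 17 of these genes were higher and 0 lower in Cont, and 0 of 19 were higher and 1 lower in Drp1LiKO.

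The copper genes had medians of -0.27 (-0.10 under quantile normalization, -0.18 over the 9 well above background on all 4 arrays) and -0.41 between genotypes, beside Cp at -0.04 and 0.03. After fasting 0 of 10 passed 2-fold, and after refeeding 1 of 9 was lower, Atp7a, a copper pump, at -1.14 (-0.97 with normexp), named after its value was seen. Refeeding medians were 0.27 in Cont and 0.09 in Drp1LiKO, the second with both signs among the scalings, and 0 of these genes passed in either.

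Regulators named with the members gave 1 of 17 higher and 1 lower in Drp1LiKO in each feeding state. Ppara, a fatty acid sensing nuclear receptor, was lower, at -1.06 and -1.39, but its fasted value was -0.82 under quantile normalization and -0.96 with normexp, under 2-fold. Myc was higher, at 1.63 and 2.60. Nr1d1, a clock gene whose product is a repressor that binds heme, was lower with refeeding in both genotypes, at -1.48 in Cont and -2.15 in Drp1LiKO. With refeeding 3 of 17 were lower in Cont and 1 in Drp1LiKO, and 0 were higher in either. The list medians were -0.32, -0.38, -0.18 and -0.20 in the order of the 4 comparisons, and -0.27, -0.23, -0.41 and -0.37 under quantile normalization.

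Acute-phase proteins are made by hepatocytes in inflammation, and Hp, Hpx, Lcn2 and Fgb of this list also stand in other lists used here. Their median was -0.62 between genotypes after fasting, with 0 of 19 higher and 3 lower, beside 8.06% and 5.19% of all genes. After refeeding it was 0.20, with 3 higher and 0 lower, beside 8.05% and 6.33%. With refeeding it was -0.04 in Cont, with 1 higher and 1 lower, beside 4.47% and 5.83%. In Drp1LiKO it was 0.89, with 9 higher and 1 lower, beside 5.61% and 7.15%. The signs of these medians were the same under each scaling, with values of -0.26, 0.38, -0.27 and 0.50 under quantile normalization. In the same 4 comparisons Tfrc was at -0.60, 0.42, 0.39 and 1.41, Mt1 at 0.06, 1.34, -0.47 and 0.82 and Slc39a14 at -0.69, -0.65, -0.22 and -0.19. Saa3 was higher with refeeding in both genotypes (1.10, under quantile normalization 0.98, and 1.39), and Socs3 was lower in both (-2.15 and -1.20). Metallothioneins and Slc39a14 are known to be induced in inflammation, and whether the acute-phase pattern has a part in their values was not tested.

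**Figure D5:**
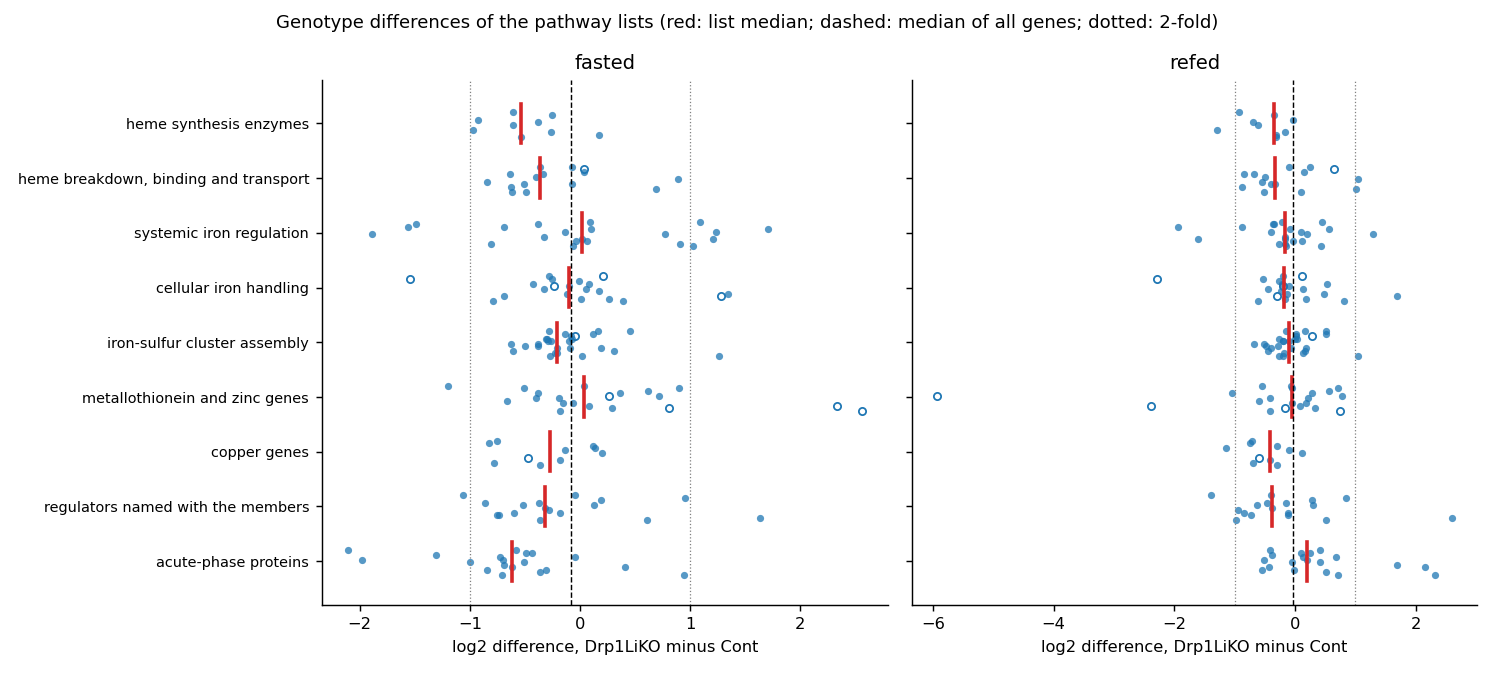
Genotype difference of each gene of the 9 pathway lists after fasting and after refeeding, with red bars for list medians, a dashed line for the median of all genes, dotted lines for 2-fold and open circles for genes not well above background on all 4 arrays. Heme synthesis enzymes lie mostly left of 0 in both panels (medians -0.54 and -0.35), and the acute-phase proteins move from -0.62 to 0.20.

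Markers of other liver cells are given beside the members. Tfrc is itself one of 11 erythroid markers, as is Alas2 of the heme list. After fasting the genotype difference was negative in 8 of 8 readable ones, from -3.69 for Slc4a1 to -0.05 for Epor, with a median of -0.81 (-0.58 under quantile normalization). Of the genes that were, like these 8, well above background on all 4 arrays, 61.3% were negative. Of these 8, 1 was lower at 2-fold, Slc4a1. The erythroid median was 0.04 after refeeding and 0.23 with refeeding in Cont, both with either sign among the scalings, and 0.95 with refeeding in Drp1LiKO. For Tfrc the values in the order of the 4 comparisons were -0.60, 0.42, 0.39 and 1.41. The summed signal of the erythroid markers, in multiples of the 75th percentile, was 190 in the fasted Cont, 108 in the fasted Drp1LiKO, 224 in the refed Cont and 217 in the refed Drp1LiKO liver. Its most abundant gene was the globin gene Hba-a1, at -0.79, 0.05, 0.28 and 1.12 in the 4 comparisons, with Hbb-bt close to it at -0.83, 0.04, 0.19 and 1.05, the last values 0.61 and 0.63 under quantile normalization. Between genotypes after refeeding, and with refeeding in Drp1LiKO, 6 of 9 readable markers were positive and 3 negative. Of all genes, 46.1% and 55.3% were positive in these comparisons. The 3 were Alas2 at -1.29 and -0.05, Klf1 at -0.95 and -0.03, and Epor at -0.53 and -0.00. Among the 6, Ahsp was well above background only in the refed Drp1LiKO liver, so it could be read only where it is high. Its values were 1.62 and 2.89, with bounds of -0.35 and 0.86 for the dim side. Gata1 did not pass the background flag on any of the 4 arrays. The part of red cell RNA in the Tfrc values was not tested.

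Over the 6 neutrophil markers well above background on all 4 arrays, the medians were -0.87, 0.38, 0.23 and 1.01 in the 4 comparisons. The 10 markers had summed signals of 6.51, 3.94, 7.32 and 11.3. S100a9 led them, at -1.11, 1.04, 0.05 and 2.20, followed by Elane at -0.19, -0.25, 0.47 and 0.42. Mpo and Ltf were well above background only in the refed Drp1LiKO liver, so they could be read only where they are high, and with them 2 of the medians would be 0.83 and 1.81 in place of 0.38 and 1.01. Of the 10 markers, Ngp and Mmp8 were not well above background on any array. For Kupffer cell and macrophage markers the genotype difference was positive in 13 of 13 readable genes after refeeding (median 0.57) and in 10 of 13 after fasting (median 0.17). Of the genes that were, like these 13, well above background on all 4 arrays, 42.2% and 38.7% were positive. At 2-fold 4 of 13 were higher after refeeding and 3 of 13 after fasting, and 0 lower in either. Their summed signal was 115, 132, 128 and 218, led by Cd5l, with Marco at 1.65 and 1.61, Cd14 at 1.60 and 1.56 and Lyz2 at 1.38 and 1.53 between genotypes, Csf1r at -0.35 and 0.24, and Cd163 not well above background. Slc40a1, which these cells express, was at -0.10 and -0.07 in the same livers. Their part in the values of Mt1, Mt2 and Slc40a1 was not tested.

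Hepatocyte markers had a median of -0.55 between genotypes after fasting and -0.48 after refeeding, and 0.03 and -0.08 under quantile normalization. All 10 were well above background on all 4 arrays, and their summed signal was 4470, 3029, 5354 and 3662. Apoa2 and Serpina1a, the most abundant, were at -0.70 and -0.68 and at -0.67 and -0.58, close to Trf at -0.68 and -0.48. Of the 10, 3 were positive after fasting and 2 after refeeding: Tat was at 1.04 and 0.98 and Cps1 at 0.60 and 1.24, while Pck1 was positive only after fasting, at 0.46 and -0.51. At 2-fold 1 of 10 was higher in each feeding state, Tat after fasting and Cps1 after refeeding, and 0 lower. Endothelial markers summed to 59.3, 50.8, 61.8 and 42.7, with 9 of 9 readable. Their medians were 0.09 and -0.22 between genotypes, with Clec4g at -0.13 and -0.46 and Kdr at -0.81 and -0.93 for the 2 brightest. After fasting 6 of 9 were positive, among them Lyve1 at 0.93, Pecam1 at 0.84 and Bmp6 at 1.23, the only one to pass 2-fold, and after refeeding 3 of 9 were positive and 0 passed.

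The lymphocyte markers summed to 23.6, 19.5, 24.6 and 18.4, with medians of -0.27 and -0.34 over the 5 well above background on all 4 arrays (0.15 and -0.20 over the 7 that could be read), and were led by Cd4 and Nkg7. Ptprc was higher in both feeding states, at 1.20 and at 2.32, where the dim Cont side gives a bound of 1.22, but with normexp at 0.39 and 0.47. Cd8a and Klrb1c were not well above background on any array. Stellate cell markers summed to 3.34, 7.14, 4.19 and 4.39, with Col1a2 at 1.29 and 0.06 and Rgs5 at 0.97 and 0.56. Cholangiocyte markers summed to 0.661, 1.25, 0.685 and 1.57, with Spp1 at 1.40 and 0.77 and Sox9 at 1.24 and 1.67 (0.45 and 0.69 with normexp), and Epcam was not well above background. The stellate and cholangiocyte medians were 0.84 and 0.49 after fasting and 0.02 and 0.77 after refeeding. Of these, the fasted cholangiocyte and the refed stellate median had the other sign under at least 1 scaling.

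The genes whose values over the 4 arrays were nearest to those of Alas1, Tfrc and Mt1 were sought among 14437 genes well above background on all 4 arrays, by Euclidean distance after centring each gene on its mean. For Tfrc they were Per2 (distance 0.103), Dclk3 (0.166) and Shb (0.175). Per2, a core clock gene, had differences of -0.55, 0.44, 0.50 and 1.49 in the 4 comparisons, and under quantile normalization it was again the nearest of all. This likeness is to the first Tfrc probe, while the second gave -2.62, 0.31, -1.07 and 1.87. For Mt1 they were Cenpk (0.043), Zeb2 (0.13) and Batf (0.136), and for Alas1 the transcript 9530077C14Rik (0.0355), S1pr1 (0.0891) and Gm3086 (0.0967). These last likenesses depend on the scaling: under quantile normalization 123 genes were nearer to Mt1 than Cenpk, and 6146 were nearer to Alas1 than 9530077C14Rik. The likeness to Mt1 is also to its bright probe alone, as the dim one gave 0.88, -0.17, 0.01 and -1.04. With 4 arrays, likeness of pattern is a description only.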

How the data were processed

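Liver RNA of 4 mice was measured on 4 one-color arrays. The signal intensity values are those the authors deposited: per the file headers, Feature Extraction 10.7.1.1 (9.5.1.1 per the labels) subtracted the background within each array. The log2 values of the authors' matrix, also deposited, are quantile normalized between arrays. Control spots and outlier spots were left out (37 probes lost), log2 signals were set relative to each array's 75th percentile, and repeated spots were averaged. Symbols were updated for 26733 of 28358 RefSeq accessions (GRCm38.p6), and 12659 probes kept the file's name. A gene was read from its probe well above background on most arrays, then of highest mean signal. A side that is not well above background was also read at a bound, the higher of its own signal and the array's lowest signal well above background.

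Members and lists were chosen with earlier results of these data known. From the lists, genes were named when at least 2-fold different the same way between genotypes in both feeding states or with refeeding in both genotypes, with the 2 brightest of each marker list and the 3 genes nearest to Alas1, Tfrc and Mt1. Alternatives were median scaling, quantile normalization, normexp with an offset of 50, the authors' matrix, the median over probes, a 1.5-fold threshold and stricter filters for dim signals, and for limma also an intensity trend and a model without the other factor. Some results for single list genes are not reported here. The scripts were tested on simulated data. The limma version was 3.58.1 under R 4.3.3, with Benjamini-Hochberg adjustment, and the other steps ran in Python 3.11.15 (pandas 2.3.3, numpy 2.4.6, matplotlib 3.10.9).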

Additional observations from a re-analysis of the deposited data

Results flagged for a closer look

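The genotype difference of Tfrc had opposite signs in the feeding states, -0.60 after fasting and 0.42 after refeeding, which are 1.02 apart on the log2 scale. The difference between them was not tested, since each rests on 1 liver per group.

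The refeeding difference of Mt1 had opposite signs in the genotypes, -0.47 in Cont and 0.82 in Drp1LiKO, 1.29 apart. This was not tested either, and the dim second probe gave 0.01 and -1.04.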

How the results depend on the processing

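Of 250 member values under an alternative, 185 moved by less than the measurement SE, 65 by more, and 0 values called at 2-fold changed sign. Of the 65, quantile normalization and the authors' matrix gave 25 each, the median over probes 14, normexp 1 and median scaling 0. The cause was not tested.

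The members called at 2-fold went from 0 after fasting to 1 (Tfrc, lower) by the median over probes and 4 at 1.5-fold, from 1 after refeeding to 0 by the median over probes and 3 at 1.5-fold, and from 1 with refeeding in Drp1LiKO to 4 at 1.5-fold. Refeeding in Cont gave 0 in every setting.

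For genotype limma called 0 genes, against 1214 among genes well above background on all 4 arrays, 474 with an intensity trend, 1 without feeding state, 319 under median scaling and 498 with normexp. For refeeding it called 0, against 15 among genes well above background on all 4 arrays. Fewer genes are tested under that filter, 14447 against 16744. For genotype, limma had 4840 of them at an unadjusted p under 0.05, against 4746. The cause of these shifts was not tested.

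Over all genes the 2-fold counts in the 4 comparisons were 2390, 2509, 1693 and 2339, against 927, 1072, 726 and 888 with normexp, 5085, 5256, 3576 and 5942 at 1.5-fold, and 1039, 1109, 597 and 1094 when both arrays had to be well above background. The share of higher calls was 60.8%, 56.0%, 43.4% and 44%, against 38.6%, 33.9%, 60.5% and 56.4% with normexp, and 45.1% and 41.9% between genotypes with both arrays above background.

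No paired analysis was possible because each group has 1 array. Signal over background limits what can be said of the second probe of Cp and the third of Tfrc, and the second probe of Mt1 is dim. The measurement SE covers the array only: animals, RNA extraction and labelling were not repeated, and all differences between livers of the same group are unknown. The feeding state of the livers called fasted is a reading of the study's description.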
